A study of Rattus norvegicus with 23 samples.

Results

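The cytosolic ribosome of the lung was followed through the genes that encode its proteins, in rats that breathed filtered air or eucalyptus wood smoke. The genes were taken by symbol from a table of 19249 genes: protein-coding genes named Rpl or Rps with a number, together with Rplp0, Rplp1, Rplp2 and Rpsa, leaving out the S6 kinases. The rule found 80 genes. Some ribosomal proteins, Rps19 among them, had no entry in the table, so the whole ribosome is not covered by the counts and shares below. The 80 genes comprise 39 large subunit genes, 26 small subunit genes, 3 stalk genes, 11 paralogs or retrocopies, and Rps19bp1. Rps19bp1 encodes a protein that binds Rps19 and is no part of the ribosome. Of the 80, 70 had a mean normalized count of at least 10 over the 22 libraries and were tested. The other 10, among them Rplp2, Rpl30, Rpl31, Rpl38 and Rps12, were below it and are given as values only.

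All animals were male and the tissue was whole lung, with 1 library per rat. The 3 groups were filtered air (7 libraries), low smoke at a target of 10 ppm carbon monoxide (8 libraries) and high smoke at a target of 20 ppm (7 libraries). Every group followed the same schedule of 4 days in the chamber, a break of 3 days and 3 more days. An eighth high smoke sample is marked in the labels as removed and was not analysed here. The libraries held 8484160 to 12055513 read equivalents. Lung markers were present in every library, with a summed normalized count over Sftpc, Sftpa1, Sftpb, Ager, Scgb1a1, Cldn5 and Cldn18 of 147345 to 194421 in air. The sum was 148130 to 217870 in low smoke and 194439 to 260468 in high smoke. High smoke replicates 1, 3 and 7 stood apart from all other libraries on the first principal component of the tested genes, which held 19.7% of the variance. Their scores were 36.5 to 51.5, against 0.305 to 8.77 in the other 4 high smoke libraries, -12.7 to -1.81 in low smoke and -21.6 to -0.291 in air. Genes that changed in high smoke are given with these 3 libraries first, and their log2 changes without them follow each comparison.

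A ribosome is built from a large subunit, which joins amino acids, and a small subunit, which reads the mRNA, and most ribosomal proteins are present once in it. Their mRNAs are among the most abundant of a cell and most begin with a terminal oligopyrimidine (TOP) motif, a C followed by a run of C and U, through which mTORC1 and the RNA-binding protein LARP1 set how strongly they are translated. Ribosomal protein genes have left many intronless copies in mammalian genomes, and several carry small nucleolar RNAs, which guide the modification of ribosomal RNA, within their introns. The deposited values measure mRNA and say nothing of how much of it was translated.

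The annotated starts of 8 genes whose levels differed between high smoke and air are printed first. The TOP motif is common in this family but does not define it, since some other mRNAs carry it too. Each line gives 20 bases before the RefSeq start and 20 from the start onward, on the gene's own strand. Capitals mark a pyrimidine run that opens with C, is followed by at least 4 more C or T, and begins at or within 10 bases of the start. The 5 genes that rose come first and the 3 that fell after them.
Rplp1, GRCr8 chr8:71290853-71290892, minus strand: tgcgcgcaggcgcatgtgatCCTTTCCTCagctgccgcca
Rplp0, GRCr8 chr12:46718371-46718410, minus strand: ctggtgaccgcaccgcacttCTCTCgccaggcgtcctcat
Rpl34, GRCr8 chr2:221962264-221962303, minus strand: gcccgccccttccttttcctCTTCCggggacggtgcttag
Rps9, GRCr8 chr1:74430418-74430457, minus strand: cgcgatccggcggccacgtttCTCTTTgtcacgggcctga
Rpl11, GRCr8 chr5:153560783-153560822, minus strand: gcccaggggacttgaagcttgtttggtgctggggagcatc
Rpl5, GRCr8 chr14:1995206-1995245, minus strand: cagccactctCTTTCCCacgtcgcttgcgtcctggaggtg
Rps15, GRCr8 chr7:10068096-10068135, minus strand: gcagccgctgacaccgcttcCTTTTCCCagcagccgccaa
Rpl37, GRCr8 chr2:55942925-55942964, plus strand: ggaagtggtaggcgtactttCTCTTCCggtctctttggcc

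Of the 80 genes, 61 had a promoter window in the RefSeq table (build GRCr8), and 55 of these are neither paralogs nor Rps19bp1. A run beginning exactly at the annotated start was found in 21 of the 55 windows (38.2%), against 881 of 33469 windows of all genes (2.63%) and 2 of 58 windows of mitochondrial ribosomal proteins (3.45%). Allowing the run to begin within 10 bases on either side, a distance chosen after the windows were seen, gave 42 of 55 (76.4%), against 28.9% of all windows and 34.5% of the mitochondrial ones. The run at the start was present in 3 of 12 windows of genes that rose in high smoke against air, 3 of 8 that fell and 14 of 31 that did not pass, with no test of the difference. Within 10 bases the same counts were 9 of 12, 6 of 8 and 25 of 31. Rplp1, Rplp0 and Rpl34 rose and Rps15, Rpl37 and Rpl35 fell, and all 6 have the run at the RefSeq start. Rpl11, which rose, has none in this window. Rps4x and Rps13, which rose, and Rpl37, which fell, lie on another chromosome in the deposited table than in RefSeq. Their windows may therefore not belong to the position whose reads were counted, here and in the motif counts that follow. The same holds for some genes that did not pass.

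Other short motifs were searched on both strands of the 300-base windows, from 250 bases before the start to 50 after it. The GC-box core GGGCGG was in 33 of the 55 windows (60.0%), against 33.1% of all windows. It was in 11 of 12 windows of genes that rose (91.7%), in 5 of 8 that fell (62.5%) and in 14 of 31 that did not pass (45.2%). CCGGAAG, an ETS-type motif, was in 32.7% of the 55, against 8.75% of all windows. The mitochondrial ribosomal protein windows had it in 32.8%, so this share is not particular to the cytosolic family. It was in 5 of 12, 4 of 8 and 6 of 31 of the same 3 sets of cytosolic genes. The TATA motif TATAAA was in 10.9%, against 14.2% of all windows, and the E-box CACGTG in 9.09%, against 6.42%. AAGATGGCG, which holds the binding core of YY1, was in 3 of the 55 windows (5.45%). It was in 1.73% of all windows and 13.8% of the mitochondrial ribosomal protein windows. These are matches of letters in a window, counted with no test.

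The 80 genes together made up 0.370 ± 0.0479% of all normalized counts in the 7 air libraries (mean ± SD). The share was 0.343 ± 0.0122% in the 8 low smoke libraries and 0.415 ± 0.0525% in the 7 high smoke libraries. Air lay at 0.330, 0.351 and 0.463% (lowest, median, highest), low smoke at 0.323, 0.344 and 0.360%, and high smoke at 0.347, 0.426 and 0.490%. The 3 groups overlapped. The high smoke libraries that stood apart held 0.426 to 0.458%, and the other 4 held 0.347 to 0.490%. The share is a sum over genes chosen for the family and was not tested. In whole lung tissue, fewer cells of a type and less RNA per cell cannot be told apart, here and in every result that follows.

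**Figure D1:**
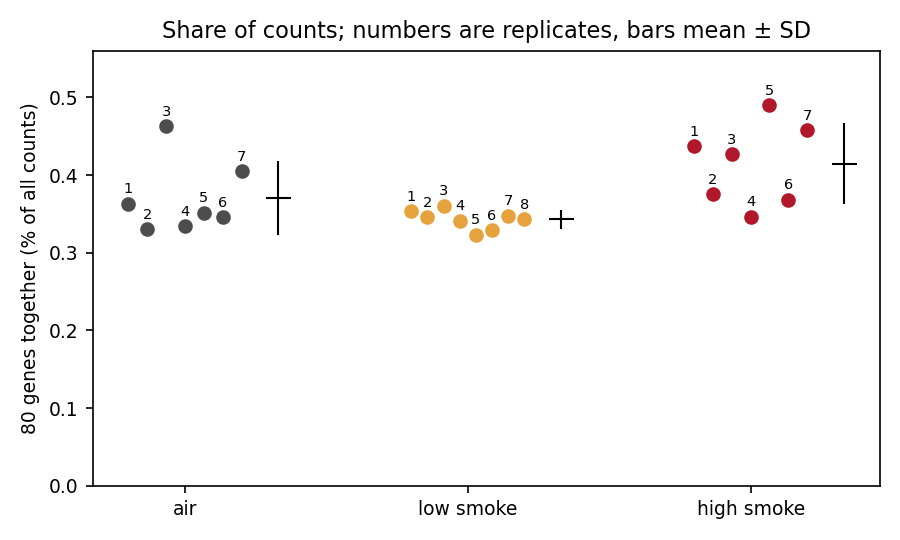
Share of all normalized counts held by the 80 ribosomal protein genes together (vertical axis, percent) in each library of air, low smoke and high smoke (horizontal axis). Numbers are replicates and bars are the mean ± SD of the group. Low smoke libraries lie between 0.323 and 0.360%, and air and high smoke libraries are spread more widely, up to 0.463% in air and 0.490% in high smoke.

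Levels differed widely within the family. Transcript lengths were not used here, so levels of different genes are not comparable per length. The highest mean normalized counts over all libraries were those of Rpl4 (4780.2), a large subunit protein that lines the narrowest part of the exit tunnel, Rplp1 (3731) and Rpl10 (2547), which reaches towards the peptidyl transferase centre. The lowest among the tested genes were those of Rpl6 (10.4), Rpl12 (13.2) and Rpl35a (13.9). Rpl30 averaged 8.99 and Rplp2, the partner of Rplp1 in the stalk, 2.78. Rplp2 lay at 1.52, 2.22 and 4.86 (lowest, median, highest) in air libraries, 1.42, 3.72 and 4.78 in low smoke libraries and 1.36, 2.12 and 3.75 in high smoke libraries. In Rpl30 the lowest air value was 1.67e-18, the lowest value was 9.63e-24 in low smoke and 7.04e-26 in high smoke, and the highest was 39.0, 30.4 and 26.0 in the same order. Such minute values are fractions far below 1 read.

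Fractional values were the rule in this family. A library's value of 1 read was taken from the most common low value, and a value within 0.02 reads of a whole number was called whole. Over all genes, 81.7 to 83.7% of a library's values were whole, but among the 80 ribosomal protein genes only 16.2 to 29.1%. At most 10% of the values were whole in 48 of the 70 tested genes (68.6%), against 13.1% of all tested genes and 5.71% of the mitochondrial ribosomal protein genes. At least 90% were whole in 6 of 70 (8.57%), among them Rpl18, Rpl23, Rps4x, Rps27l and Rps19bp1, against 77.6% of all tested genes. How the authors divided reads that match more than one place is not given in the sources used here. A read from a parent gene and one from a near-identical copy cannot be told apart by sequence alone, so every level in this family is uncertain to that extent.

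**Figure D2:**
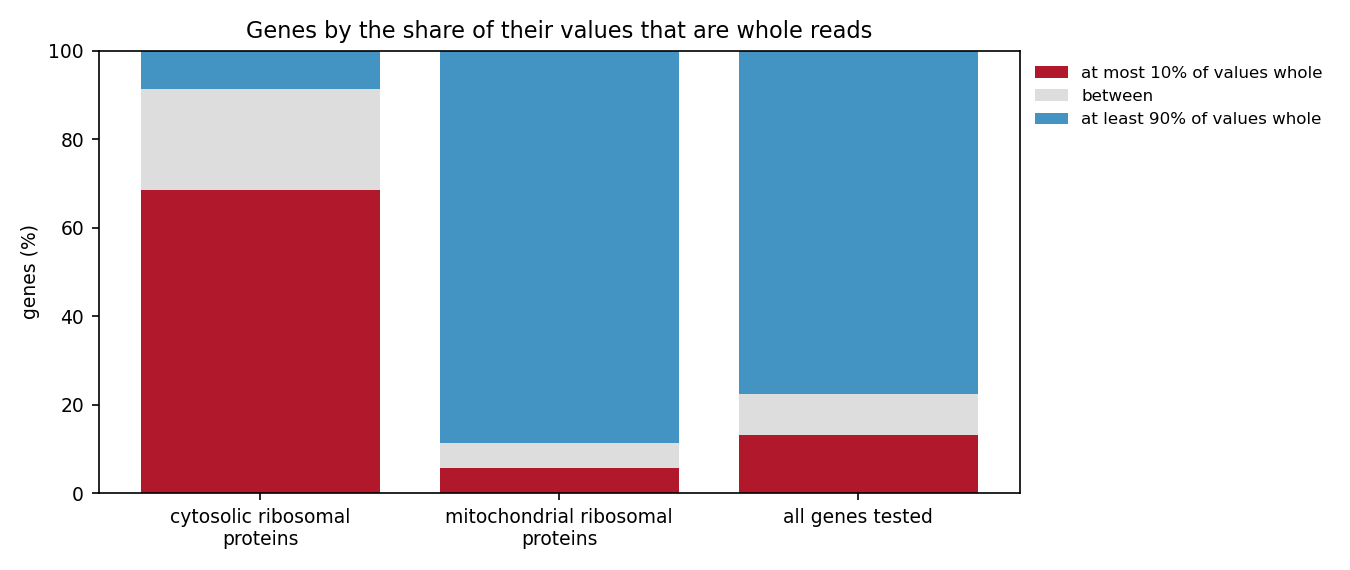
Tested genes of 3 sets (horizontal axis) divided by the share of their 22 values that are whole numbers of reads (vertical axis, percent of genes). Red is at most 10% whole, blue is at least 90% whole and grey lies between. At most 10% whole holds for 68.6% of the cytosolic ribosomal protein genes, 5.71% of the mitochondrial ones and 13.1% of all genes tested.

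RefSeq lists named copies (a symbol ending in l or -ps with a number) for these genes in large number, with a median of 13 and a maximum of 36 per gene with a RefSeq symbol. In addition, 11 of 77 genes with a RefSeq symbol lie on another chromosome in the deposited table (build rn6) than in RefSeq (GRCr8): Rpl9, Rpl35a, Rpl37, Rpl38, Rpl39, Rps4x, Rps10, Rps10l1, Rps13, Rps19l2 and Rps29. In 10 of these the span in the table is under 1000 bases, between 214 and 973. The table's Rps4x, for example, lies at chr4:35729628-35730600, minus strand of rn6. The position under such a symbol may therefore not be that of the parent gene. Among the 57 tested genes on the RefSeq chromosome with a span of at least 1000 bases, 13 rose and 8 fell in high smoke against air (36.8%), set beside 37.1% of all 70.

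High smoke against air asks how these genes differed between the larger smoke dose and air, and they differed in both directions. Of 70 tested genes, 26 changed at an adjusted p below 0.05 in limma (37.1%), where 16.3% of all 14414 tested genes did. In detail, 16 rose (9.21% of all tested genes) and 10 fell (7.05% of all). The median log2 change of the 70 was -0.02, beside -0.00 over all tested genes, while the median size of a change without its sign was 0.31, beside 0.17. The centre of the family stayed near 0 while single genes changed in both directions. Among those that rose were Rpl11, Rps9, Rps15al4, Rpl34, Rps25, Rplp1, Rps13, Rplp0, Rpl29, Rps6, Rps4x, Rpl15, Rpsa, Rpl21 and Rpl3. Among those that fell were Rpl36al, Rps15, Rpl37, Rpl5, Rpl26, Rps3, Rpl27a, Rpl35 and Rpl23. Groups did not overlap in 2 of the 70 genes, Rplp1 (higher in high smoke) and Rpl5 (lower), where 1.87% of all tested genes did not overlap (1.3% higher and 0.569% lower). With every library scaled to the same total, the split was 10 up and 14 down, and the median of the 70 was -0.09, beside -0.08 over all tested genes.

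**Figure D3:**
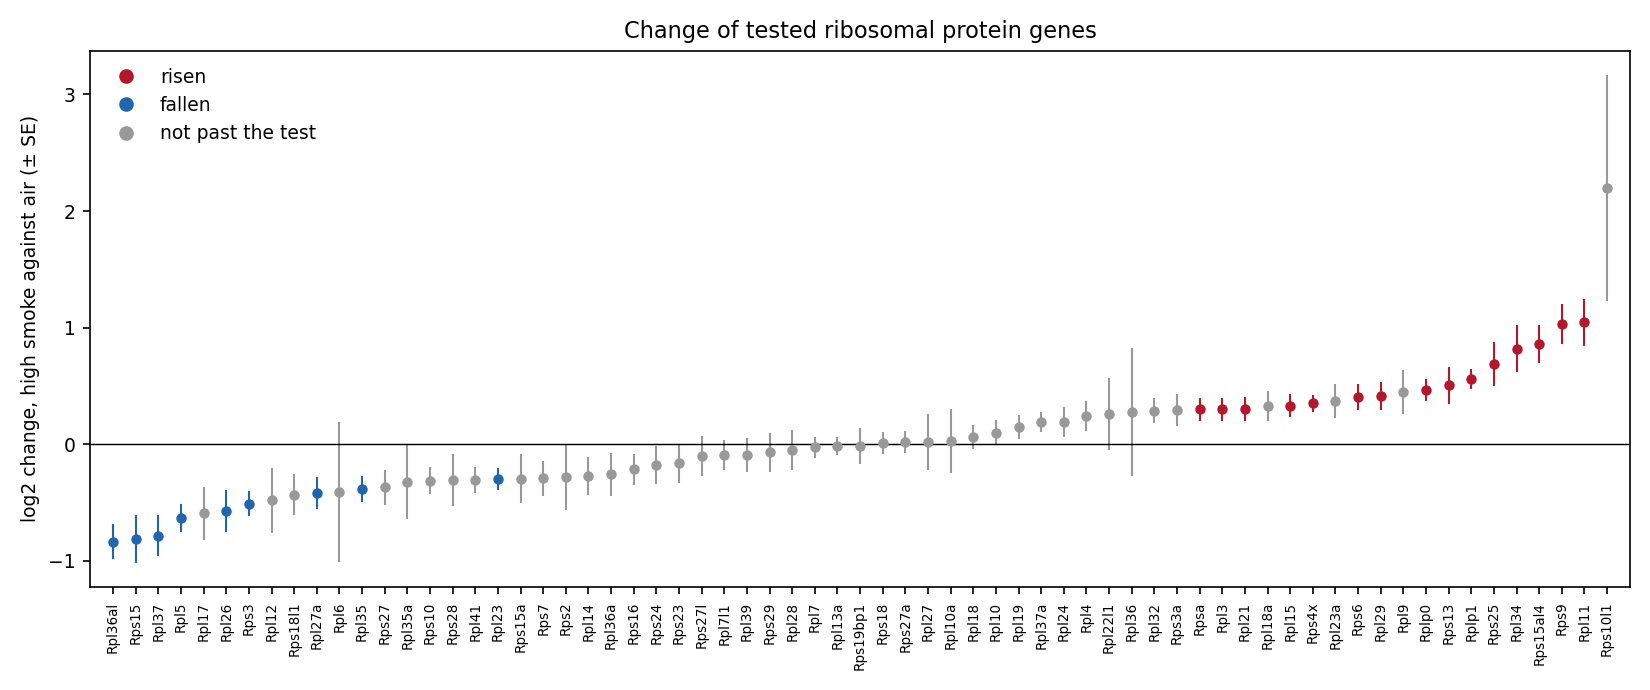
Log2 change of 67 tested ribosomal protein genes in high smoke against air (vertical axis, on the log2(value + 1) scale, ± SE), ordered by size along the horizontal axis. Red genes rose and blue genes fell at an adjusted p below 0.05, and grey genes did not pass. The changes run on both sides of 0, from -0.84 in Rpl36al to 2.20 in Rps10l1, which did not pass the test and has the widest error.

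The stalk of the large subunit, which recruits the GTPases of translation, rose in both genes tested, where 9.21% of all tested genes rose. Rplp1 (rn6 chr8:66862143-66863477, minus strand) encodes one of the acidic stalk proteins. Its normalized count lay at 4002, 4858 and 5247 (lowest, median, highest) in high smoke, against 2546, 3152 and 3852 in air, so every high smoke library was above every air library. The log2 change was 0.56 ± 0.09 (SE; limma, adjusted p = 0.000326), a 1.47-fold level. Rplp0, the scaffold to which the acidic proteins bind, lay at 1162, 1568 and 1753 (lowest, median, highest) in high smoke, against 892, 1104 and 1368 in air. The groups overlapped, and the log2 change was 0.46 ± 0.10 (SE; limma, adjusted p = 0.00272). The third stalk gene, Rplp2, was below the level for testing.

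Rpl5 and Rpl11, whose proteins bind 5S ribosomal RNA together and, when free of ribosomes, hold back the p53 ligase Mdm2, went opposite ways. Rpl11 (rn6 chr5:154388140-154394329, minus strand) lay at 329, 587 and 1100.2 (lowest, median, highest) in high smoke, against 242, 312 and 362 in air. Only the lowest high smoke value reached into the air range, and the log2 change was 1.05 ± 0.20 (SE; limma, adjusted p = 0.00184). Rpl5 (rn6 chr14:2860965-2867398, minus strand) lay at 893, 1366 and 1646 (lowest, median, highest) in high smoke, against 1711, 1876 and 2389.7 in air, so every high smoke library was below every air library. Its log2 change was -0.63 ± 0.12 (SE; limma, adjusted p = 0.00155). Both changes were widest in the libraries that stood apart: Rpl11 was at 862 to 1100.2 in high smoke replicates 1, 3 and 7, and 329 to 587 in the other 4 high smoke libraries, and Rpl5 at 893 to 1041 in high smoke replicates 1, 3 and 7, and 1366 to 1646 in the other 4 high smoke libraries. Without replicates 1, 3 and 7 the log2 changes were 0.54 for Rpl11 and -0.35 for Rpl5, and neither passed the test.

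Around the mouth of the peptide exit tunnel, where new proteins leave the ribosome and the signal recognition particle docks, 2 of 6 tested genes fell and none rose, where 7.05% of all tested genes fell. Rpl26, a target of modification by UFM1, lay at 24.9, 29.9 and 54.2 (lowest, median, highest) in high smoke, against 34.7, 57.6 and 62.1 in air, and changed by -0.58 ± 0.18 (SE; limma, adjusted p = 0.0292). Rpl35 lay at 94.0, 118 and 160.2 (lowest, median, highest) in high smoke, against 137, 158 and 207 in air, and changed by -0.39 ± 0.11 (SE; limma, adjusted p = 0.0204). In both genes the groups overlapped. Of the others, Rpl17 was -0.59, Rpl23a 0.37, Rpl19 0.15 and Rpl39 -0.09 on the log2 scale, and none passed.

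In the list set for the core of the large subunit, 1 of 7 tested genes rose and 1 fell, where 9.21% of all tested genes rose and 7.05% fell. Of the 10 genes of that list, 7 were in the table, and Rpl10a and Rpl12 among them belong to stalks. Rpl3, which sits close to the peptidyl transferase centre, lay at 2136, 2801 and 3616 (lowest, median, highest) in high smoke, against 2001, 2224 and 2798 in air, with a log2 change of 0.30 ± 0.10 (SE; limma, adjusted p = 0.0378). Rpl23, which lies at the subunit interface where Eif6 binds, lay at 128, 156 and 188 (lowest, median, highest) in high smoke, against 157, 185 and 245 in air, with a log2 change of -0.30 ± 0.10 (SE; limma, adjusted p = 0.035). The groups overlapped in both. Rpl4 was at 0.24, Rpl10 at 0.10, Rpl10a at 0.03, Rpl12 at -0.48 and Rpl13a at -0.02 on the log2 scale, and none passed. The remaining large subunit genes that passed lie in no list: Rpl34, Rpl29, Rpl15 and Rpl21 rose, by 0.82, 0.41, 0.33 and 0.30, and Rpl37 and Rpl27a fell, with log2 changes of -0.79 and -0.42. Rpl37 (rn6 chr10:64336200-64336547, plus strand, on another chromosome than in RefSeq) lay at 31.8, 42.1 and 60.4 (lowest, median, highest) in high smoke, against 56.6, 74.3 and 96.4 in air, with an adjusted p of 0.00401 by limma, and the groups overlapped. Rpl34 lay at 102, 171 and 359 (lowest, median, highest) in high smoke, against 62.5, 111 and 125 in air, with an adjusted p of 0.00794 by limma. Those groups overlapped too.

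In the small subunit, the largest change among the genes that passed was that of Rps9, a body protein whose bacterial counterpart takes part in the accuracy of decoding. Rps9 (rn6 chr1:64018125-64090022, minus strand, a span of 71898 bases, the longest among the 77 genes with a RefSeq symbol) lay at 841, 1359 and 2345 (lowest, median, highest) in high smoke, against 608, 650.4 and 886 in air. Only the lowest of the high smoke values reached into the air range. The log2 change was 1.03 ± 0.17 (SE; limma, adjusted p = 0.000642), a 2.04-fold level. Rps9 was at 1765 to 2345 in high smoke replicates 1, 3 and 7, and 841 to 1359 in the other 4 high smoke libraries, and without replicates 1, 3 and 7 it still passed, with a log2 change of 0.60.

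In the body and foot of the small subunit, 4 of 9 tested genes rose and 1 fell, where 9.21% of all tested genes rose and 7.05% fell. Only those 4 were above 0, and the median log2 change of the 9 was -0.18. Besides Rps9, Rps4x rose by 0.35, Rps6 by 0.40 and Rps13 by 0.50 on the log2 scale. Rps6, the ribosomal target of the S6 kinases, lay at 1384, 1811 and 2304 (lowest, median, highest) in high smoke, against 1182, 1455 and 1733 in air (limma, adjusted p = 0.0161). Rps4x lay at 2057, 2349 and 2704 (lowest, median, highest) in high smoke, against 1671, 1853 and 2127 in air (limma, adjusted p = 0.00223). High smoke libraries were mostly above air in both genes, and the groups overlapped. Rps7, Rps24 and Rps27 were at -0.30, -0.18 and -0.37, and did not pass.

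At the path of the mRNA through the small subunit, 2 of 5 genes fell and none rose, beside 7.05% of all tested genes that fell. Rps3, which forms part of the mRNA entry channel, lay at 147, 190.3 and 206 (lowest, median, highest) in high smoke, against 196, 247 and 339 in air, with a log2 change of -0.51 ± 0.11 (SE; limma, adjusted p = 0.00334). Rps15, whose tail reaches the decoding site, lay at 26.7, 38.4 and 59.4 (lowest, median, highest) in high smoke, against 45.2, 70.2 and 107 in air, with a log2 change of -0.81 ± 0.21 (SE; limma, adjusted p = 0.00978). High smoke lay low in both, with overlapping groups. Rps2, Rps23 and Rps27a were at -0.28, -0.16 and 0.02 on the log2 scale and did not pass. On the platform, 2 of 5 listed genes were in the table. Rpsa, also known as the laminin receptor, lay at 517, 717 and 833 (lowest, median, highest) in high smoke, against 436, 549.6 and 704 in air. It rose by 0.30 ± 0.10 (SE; limma, adjusted p = 0.0413), while Rps28 was at -0.31 and did not pass. The head list does not hold every protein of the head, so it cannot speak for the head as a whole. Its 4 tested genes, Rps10, Rps16, Rps18 and Rps29, were at -0.31, -0.22, 0.01 and -0.07. None had an adjusted p below 0.05 in limma, while Rps10 had an unadjusted p below 0.05. The rank-sum test called none of the 4. In no list, Rps25, a small subunit protein needed by several viral internal ribosome entry sites, lay at 32.1, 44.7 and 78.8 (lowest, median, highest) in high smoke, against 28.4, 28.9 and 34.4 in air, with a log2 change of 0.69 ± 0.19 (SE; limma, adjusted p = 0.0147). The groups overlapped.

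**Figure D4:**
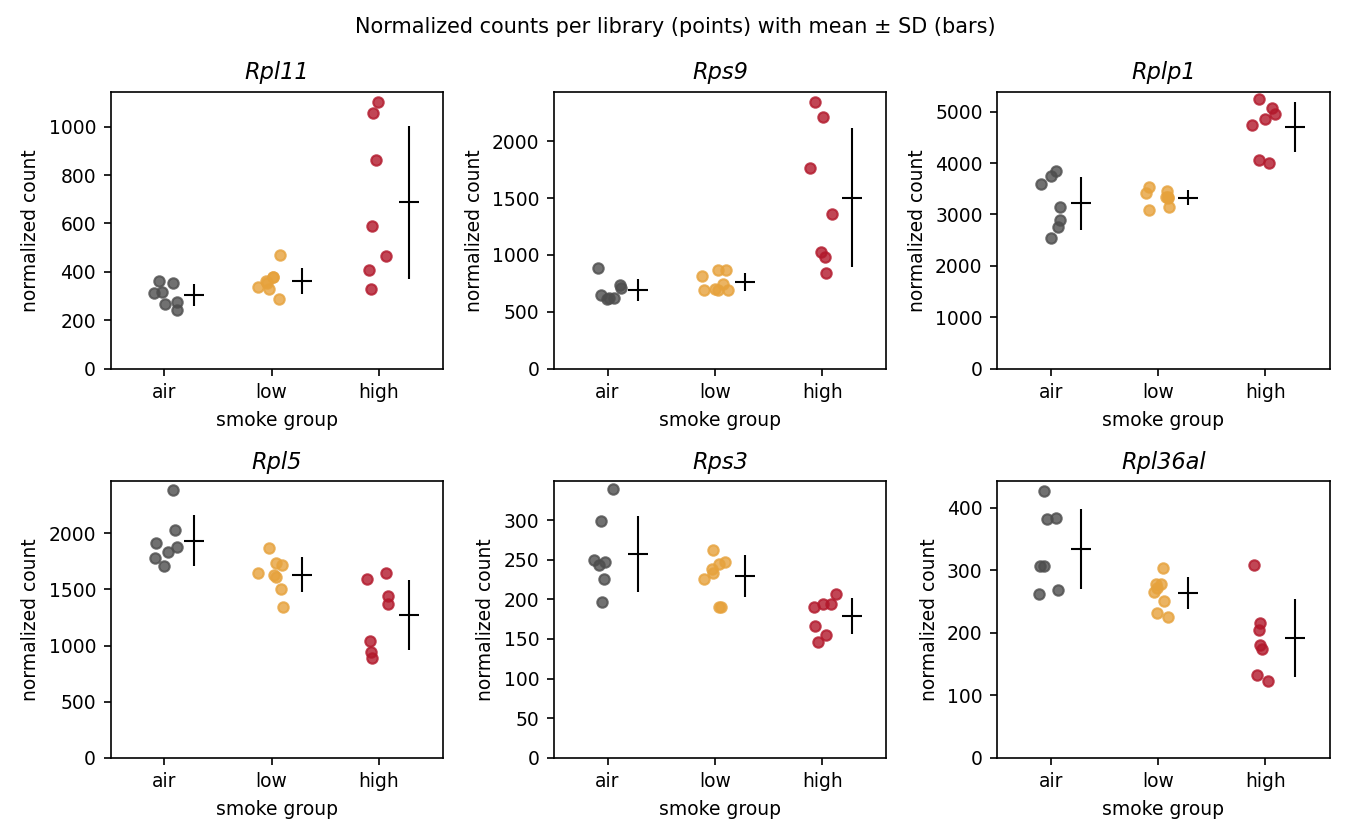
Normalized count (vertical axes, from 0) of 6 ribosomal protein genes in every library of air, low smoke and high smoke (horizontal axes). Points are libraries and bars are the mean ± SD of the group. Rpl11 and Rps9 spread widely in high smoke, with replicates 1, 3 and 7 at 862 to 1100.2 and 1765 to 2345. Rplp1 is higher and Rpl5 lower in every high smoke library than in any air library.

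Paralogs and retrocopies did not follow their parent genes throughout. Rpl36al, a paralog of Rpl36a, had the largest fall of the family. It lay at 123, 181 and 309 (lowest, median, highest) in high smoke, against 262, 307 and 427 in air, and the groups overlapped, with a log2 change of -0.84 ± 0.15 (SE; limma, adjusted p = 0.00111). Its parent Rpl36a was at -0.26 and did not pass. Rps15al4, a copy of Rps15a with a span under 1000 bases, lay at 391, 601 and 868 (lowest, median, highest) in high smoke, against 249, 286 and 496 in air, with a log2 change of 0.86 ± 0.16 (SE; limma, adjusted p = 0.00152), and its groups overlapped. Its parent Rps15a was at -0.30 and did not pass. The mean normalized count over all libraries was 418 for the copy and 24.7 for the parent, and likewise 263 for Rpl36al and 42.4 for Rpl36a, so reads filed under a copy outnumbered those filed under its parent. Rps18l1 was at -0.43 beside 0.01 in Rps18, Rps27l at -0.11 beside -0.37 in Rps27, and Rpl7l1 at -0.09 beside -0.03 in Rpl7, and none of the 6 passed. Rps10l1 lay at 0.322, 25.5 and 42.1 (lowest, median, highest) in high smoke, against 0, 0.734 and 35.3 in air. Its log2 change of 2.20 ± 0.97 (SE) did not pass, and Rps10 was at -0.31. Rpl22l1, whose parent was not analysed here, was at 0.26. Rpl10l, Rpl39l, Rps4y2 and Rps19l2 were below the level for testing, with mean normalized counts of 1.44, 3.96, 5.02 and 7.99. The differences between copy and parent were not tested.

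High smoke replicates 1, 3 and 7 held many of the extreme values. In 13 of the 26 genes that changed (8 of 16 that rose and 5 of 10 that fell), those 3 libraries held the 3 most extreme high smoke values. The same count over all genes that changed was not made, so it cannot be called particular to this family. Without these 3 libraries, which leaves 4 high smoke libraries in the test, all 26 kept their direction, but only Rplp1 and Rps9 passed. They made 2 of 71 genes then tested, where 0.861% of all tested genes passed. Over all tested genes, 124 passed then, against 2343 with every library. Rplp1 changed by 0.50 on the log2 scale without them, beside 0.56 with every library. Among the others that had risen, the log2 changes without them were 0.61 in Rps15al4, 0.49 in Rpl34, 0.39 in Rplp0, 0.30 in Rps6, 0.30 in Rps25, 0.29 in Rps4x and 0.25 in Rps13. They were 0.21 in Rpl29, 0.21 in Rpl21, 0.21 in Rpsa, 0.14 in Rpl15 and 0.13 in Rpl3, all smaller than with every library. Among those that had fallen, Rpl37 was at -0.58, Rps15 at -0.57, Rpl36al at -0.56, Rps3 at -0.37, Rpl27a at -0.33, Rpl35 at -0.32, Rpl23 at -0.31 and Rpl26 at -0.31. Leaving out 1 library at a time gave 14 to 31 genes, with 14, 15 and 16 when high smoke replicate 1, 3 or 7 was left out. The call of 14 genes held in each of the 22 leave-outs: Rpl5, Rpl11, Rpl34, Rpl36al, Rpl37, Rplp0, Rplp1, Rps3, Rps4x, Rps6, Rps9, Rps15, Rps15al4 and Rps25. The other 12 lost it in 1 to 10 of the 22. A rank-sum test, which gives no weight to the size of a value, called 8 of 70 (Rpl5, Rpl11, Rpl37, Rplp1, Rps3, Rps4x, Rps9 and Rps25), where it called 5.18% of all tested genes.

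The spread between libraries was widest in high smoke. The median coefficient of variation of the 70 genes was 17.8% among air libraries, 14.5% among low smoke libraries and 22.4% among high smoke libraries, beside 16.2, 13.3 and 16.5% over all tested genes in the same order. Genes that rose had a median mean level of 514 normalized counts, those that fell 174 and those that did not pass 140. Over all tested genes the same medians were 437, 355 and 171. Among tested genes with at least 90% whole values, Rps4x rose, Rpl23 fell and Rpl18, Rps27l and Rps19bp1 did not pass.

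Low smoke against air asks whether the family differed between the smaller dose and air. No gene of the 70 passed the test (limma), nor did any of all 14414 tested genes (0.0%). At an unadjusted p below 0.05 there were 9 of 70, beside 923 of all 14414 tested genes (6.40%), and the rank-sum test called none either. Every one of the 70 overlapped with air, where 0.0416% of all tested genes did not (0.0139% higher and 0.0278% lower). The median log2 change of the 70 was -0.10, beside 0.00 over all tested genes, and 51 of 70 were below air. Without air replicate 3 the median was -0.05, 43 of 70 were below air and 3 had an unadjusted p below 0.05, and with array weights the median was -0.06. Over all single leave-outs, 3 to 11 genes had an unadjusted p below 0.05. The 5 genes with the smallest p are given as values. Rpl41, the smallest ribosomal protein, lay at 417, 543 and 676 (lowest, median, highest) in low smoke, against 576, 673 and 881 in air, with a log2 change of -0.40 ± 0.11 (SE; limma, adjusted p = 0.479). Rpl10a, a protein of the mobile L1 stalk, lay at 11.3, 21.1 and 41.9 (lowest, median, highest) in low smoke, against 19.4, 36.5 and 60.9 in air, with a log2 change of -0.90 ± 0.27 (SE; limma, adjusted p = 0.495). Low smoke overlapped with air in both. Rps7 was at -0.37, Rpl12, which lies at the base of the acidic stalk, at -0.61, and Rps29 at -0.37 on the log2 scale. Of the genes that moved most in high smoke, Rplp1 was at 0.06 ± 0.08 (SE) in low smoke against air, Rps9 at 0.14 ± 0.17, Rpl11 at 0.25 ± 0.20 and Rpl5 at -0.24 ± 0.12. High smoke and low smoke share the air libraries, so the 2 comparisons are not independent.

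High smoke against low smoke compares the 2 doses directly. Of 70 genes, 17 changed (24.3%, where 6.78% of all tested genes did), 14 upward (3.8% of all) and 3 downward (2.98% of all). The median log2 change of the 70 was 0.12, beside 0.00 over all tested genes. Rplp1 lay at 4002, 4858 and 5247 (lowest, median, highest) in high smoke, against 3080.1, 3338 and 3541 in low smoke, and every high smoke library was above every low smoke library, with a log2 change of 0.49 ± 0.08 (SE; limma, adjusted p = 0.014). Rps4x was the other gene without overlap, at 2057, 2349 and 2704 in high smoke, against 1588, 1892 and 1970.4 in low smoke, with a log2 change of 0.34 ± 0.07 (SE; limma, adjusted p = 0.0159). Over all tested genes, 0.694% did not overlap (0.382% higher and 0.312% lower). The rank-sum test called 3 of the 70, where it called 1.27% of all tested genes. Rps9, Rpl11, Rps25, Rps15al4, Rpl34, Rps13, Rplp0 and Rpl15 rose here as they did against air, and Rpl36al, Rpl5 and Rps3 fell, with log2 changes of -0.51, -0.39 and -0.36.

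A further 4 genes passed against low smoke and not against air. Rpl10a lay at 24.6, 38.6 and 67.9 (lowest, median, highest) in high smoke, against 11.3, 21.1 and 41.9 in low smoke, with a log2 change of 0.93 ± 0.27 (SE; limma, adjusted p = 0.0398), and its log2 change against air was 0.03. Rpl9, which lies near the stalk base, lay at 767, 1384 and 2147 (lowest, median, highest) in high smoke, against 589, 804 and 1013 in low smoke, with a log2 change of 0.73 ± 0.18 (SE; limma, adjusted p = 0.025). Both overlapped, and in both the low smoke median was also below the air median, which was 36.5 in Rpl10a and 1006 in Rpl9. Rpl4 changed by 0.46 ± 0.13 and Rpl32 by 0.39 ± 0.10 (SE) on the log2 scale. Without high smoke replicates 1, 3 and 7, none of the 17 passed and all 17 kept their direction. The log2 changes were then 0.43 in Rplp1, 0.45 in Rps9, 0.29 in Rps4x, 0.79 in Rpl10a, 0.31 in Rpl9 and 0.24 in Rpl4. They were 0.28 in Rpl32, 0.29 in Rpl11, 0.46 in Rps15al4, 0.39 in Rps25, 0.33 in Rpl34 and 0.33 in Rps13. Rplp0 was at 0.29, Rpl15 at 0.16, Rpl36al at -0.23, Rpl5 at -0.11 and Rps3 at -0.22. The share passing over all tested genes was then 0.0%. At an unadjusted p below 0.05 there were 13 of 71 ribosomal protein genes and 939 of all 14394 genes then tested. Leaving out 1 library gave 2 to 25 genes, with 3, 3 and 2 without high smoke replicate 1, 3 or 7, and 8, 7 and 8 without low smoke replicate 1, 2 or 4. Rplp1 and Rps9 passed in each of the 22 leave-outs. High smoke stands in both this comparison and the one against air.

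Small nucleolar RNAs that lie within these genes rose in high smoke, while their hosts moved in both directions or not at all. The table holds 22 small nucleolar RNA entries on the same strand within 14 ribosomal protein genes, of which 8 reached the level for testing. All 8 rose in high smoke against air (where 9.21% of all tested genes rose), with a median log2 change of 1.79, while of the 13 tested hosts 2 rose and 3 fell. None of the 8 passed in low smoke against air in limma or the rank-sum test. Their median there was 0.68, and 4 of 8 had an unadjusted p below 0.05. In high smoke against low smoke 5 of the 8 rose, where 3.8% of all tested genes did. Because host and small RNA overlap on the genome, reads of a host intron or exon and of the small RNA within it may not be separable, and whether the counting used strand is not given in the sources used here.

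SNORD18, within Rpl4, lay at 2203, 5606 and 8775 normalized counts (lowest, median, highest) in high smoke, against 333, 1069.6 and 1912 in air. Every high smoke library was above every air library, with a log2 change of 2.43 ± 0.34 (SE; limma, adjusted p = 0.000198), beside 0.24 in Rpl4. Snord83b, within Rpl3, lay at 1840.4, 3791 and 6985 in high smoke, against 376, 1152 and 2021 in air, with a log2 change of 1.86 ± 0.30 (SE; limma, adjusted p = 0.000496), beside 0.30 in Rpl3, and its groups overlapped. SNORD15 changed by 1.75 within Rps3, and SNORD21 by 1.50 within Rpl5, 2 hosts that fell, with log2 changes of -0.51 and -0.63. SNORD33 changed by 1.63 beside -0.02 in Rpl13a, Gm25091 by 1.76 beside 0.30 in Rpl21, and Gm23130 by 1.83 within Rps12, which was below the level for testing. The entries of SNORD33, SNORD18 and SNORD15 span 607, 2092 and 3855 bases, which is longer than a small nucleolar RNA, so host sequence lies within them. The other 5 span 72 to 95 bases. Without high smoke replicates 1, 3 and 7, 4 of the 7 then tested rose, where 0.861% of all tested genes passed. The log2 changes were then 1.88 in SNORD18, 1.34 in Snord83b and 1.29 in SNORD15, which passed, and 1.44 in Gm23130, 1.05 in SNORD33 and 0.90 in SNORD21, which did not. The difference between small RNA and host was not tested.

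**Figure D5:**
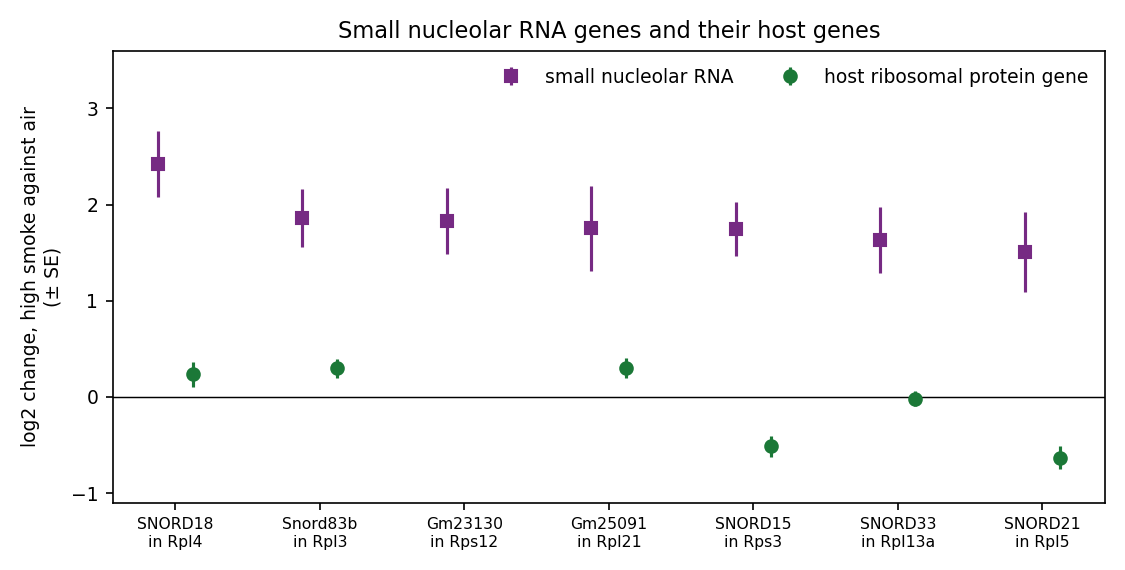
Log2 change in high smoke against air (vertical axis, ± SE) of 7 small nucleolar RNA genes (purple squares) and of the ribosomal protein genes they lie in (green circles). The small nucleolar RNAs lie between 1.50 and 2.43, while the hosts lie between -0.63 and 0.30, and Rps12 has no host value.

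Genes that work with the ribosome give the surroundings of these changes, all in high smoke against air. Fau, a ribosomal protein gene that the symbol rule does not reach, fell. It makes a ubiquitin-like protein fused to a small subunit protein, and averaged 47.2 ± 10.5 normalized counts in high smoke and 65.9 ± 8.27 in air (SD, n = 7 each), with a log2 change of -0.49 ± 0.14 (SE; limma, adjusted p = 0.0169). Rack1, a signalling scaffold on the head of the small subunit, was at 0.05 and did not pass. Among 31 tested ribosome assembly genes, 2 rose (Pes1 by 0.54 and Gnl3, which makes nucleostemin, by 0.36) and 2 fell, with log2 changes of -0.25 in Npm1 and -0.31 in Tsr1. These 4 make 12.9% of the list, where 16.3% of all tested genes changed, and the median of the 31 was 0.10. Without high smoke replicates 1, 3 and 7, Fau was at -0.28, Pes1 at 0.45, Gnl3 at 0.23, Npm1 at -0.25 and Tsr1 at -0.20, and none passed.

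Of 18 tested genes that act on TOP mRNAs, 3 rose and 6 fell, where 9.21% of all tested genes rose and 7.05% fell. Rptor, the mTORC1 subunit that binds its substrates, averaged 1151 ± 387 normalized counts in high smoke and 792 ± 89.7 in air (SD, n = 7 each), a log2 change of 0.48 ± 0.14 (SE; limma, adjusted p = 0.0189). Rheb, the GTPase that switches mTORC1 on, rose by 0.52 and Mycn by 0.57. Larp1, which binds the TOP start and holds the mRNA from translation, averaged 1025 ± 146 in high smoke and 1275 ± 139.6 in air, a log2 change of -0.32 ± 0.08 (SE; limma, adjusted p = 0.0122). Tial1 and Tia1, which bind TOP mRNAs under stress, changed by -0.52 and -0.52, Rictor, which defines mTORC2, by -0.66, the initiation repressor Eif4ebp2 by -0.30 and the cap-binding Eif4e by -0.24. Mtor itself was at -0.04 and Myc, a transcriptional activator of ribosomal protein genes, at 0.01, and neither passed. Without high smoke replicates 1, 3 and 7, Rptor was at 0.18, Rheb at 0.32, Mycn at 0.52, Larp1 at -0.17, Tia1 at -0.31, Rictor at -0.41, Eif4ebp2 at -0.15 and Eif4e at -0.26, and none of these passed, while Tial1 passed at -0.28. Of 14 other TOP mRNAs tested, 4 rose (Tpt1, Eif3k, Vim and Eif4b, by 0.39, 0.37, 0.33 and 0.29) and Npm1 fell. Without the same 3 libraries Tpt1 was at 0.22, Eif3k at 0.16, Vim at 0.17 and Eif4b at 0.25, and none passed. Mitochondrial ribosomal proteins, encoded by other genes, rose in 10 of 70 and fell in 1, with a median log2 change of 0.09, and the share that changed (15.7%) was near the 16.3% of all tested genes. These lists were chosen with earlier results of these data known, and counts are given with no test of the list.

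Lung and red cell markers lay higher in high smoke than in air, and B cell, T cell and proliferation markers overlapped more. The lung marker sum was 194439 to 260468 in high smoke, against 147345 to 194421 in air, without overlap. Red cell markers overlapped little. The summed normalized count of 4 red cell markers (Hbb, Hba-a1, Hba-a2 and Alas2) was 7018 to 14499 in high smoke, against 4793 to 7108 in air. That of 5 B cell markers was 506 to 1407 in high smoke, against 225 to 811 in air. All of these markers were found in the table and none was at 0 in any library. T cell markers summed to 243 to 389 in high smoke, against 197 to 466 in air, and proliferation markers to 384 to 488 in high smoke, against 289 to 679 in air. Transcripts of the mitochondrial genome made up 0.744 to 1.54% of counts in high smoke, against 1.20 to 1.57% in air. The part of these in the changes of ribosomal protein genes was not tested.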

How the data were processed

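RNA was measured by sequencing in 22 rat lung libraries. Reads were aligned with STAR 2.7.3a to build rn6 and processed in Partek with DESeq2, per the submitters' processing notes. The deposited values are a signal: the authors' gene counts divided by a size factor of each library, on a scale of normalized counts. They were partly fractional, so whole reads were not recovered and no count model was used. The study planned 24 rats, randomized to 3 groups of 8, about 35 mg of lung per RNA extraction and 1 µg of RNA (integrity number 9.0 or more) per library, per the labels' protocols. The protocol also says that 1 filtered-air sample was removed.

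Values were taken as log2(value + 1), which makes changes of low genes too small. A gene was tested where its mean normalized count was 10 or more, which left 14414. Limma 3.58.1 in R 4.3.3 fitted the 3 groups together (intensity trend on), with two-sided p-values adjusted by Benjamini-Hochberg over all 14414 genes. A gene with an adjusted p below 0.05 is said to have risen or fallen, or to have passed. The rank-sum test was the exact two-sided Wilcoxon test on the 2 groups compared. The fit was tested on simulated data. Each rat gave 1 library, and p-values measure the spread between rats. Counting error is largest in genes with few reads and has no interval of its own here. Tables and sequences were read with Python 3.11.15 and pandas 2.3.3.

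The genes, the lists and the 3 high smoke libraries set apart were chosen with earlier results of these data known. Named were up to 12 changes per direction and comparison, the 5 smallest p where fewer than 3 genes passed, the 3 highest and the 3 lowest levels, the stalk, Rpsa, Rpl5, Rpl11, Rps6, and paralogs with their parents. Other genes are named as members of a list or because they passed, and were chosen after their values were seen. A few genes enter the counts but are not reported here by name. Alternatives were other pseudocounts, level filters, scalings and variance models, a fit of the 2 groups compared, the rank-sum test, and leaving out libraries.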

Additional observations from a re-analysis of the deposited data

Results flagged for a closer look

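Among 135 sets of values (1 gene in 1 group), 9 single values lay far from the rest of their group by Dixon's test (6.67% of the sets, where chance gives about 1 in 20). Of these, 4 were values of air replicate 3, high in each: Rpl27a at 291 normalized counts (others 165 to 211), Rpl32 at 714 (others 450.4 to 546), Rpl35 at 207 (others 137 to 163) and Rpl39 at 397 (others 211 to 272). Rpl36a was low in air replicate 5, at 30.5 (others 44.5 to 53.4), and Rpl6 in air replicate 7, at 8.82e-10 (others 6.59 to 15.9), a value far below 1 read.

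In low smoke, Rpl7l1 was high in replicate 2, at 152 (others 79.0 to 105), and Rps4x was low in replicate 4, at 1588 (others 1829 to 1970.4). In high smoke, Rps10l1 was low in replicate 2, at 0.322 (others 9.10 to 42.1). Without that library the log2 change of Rps10l1 against air was 2.78 and passed the test. Without air replicate 3, Rpl27a did not pass, with a log2 change of -0.33, and Rpl35 still did.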

How the results depend on the processing

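No paired analysis was possible because no label ties a rat of one group to a rat of another. In high smoke against air, the 26 genes that passed became 16 in a fit of the 2 groups compared, 8 in the rank-sum test, 2 without high smoke replicates 1, 3 and 7, and 14 to 31 when 1 library was left out. In high smoke against low smoke, the 17 became 11 with the intensity trend off, 3 in the rank-sum test, 0 without those replicates, and 2 to 25 when 1 library was left out. Fewer libraries enter the tests that leave some out, and the cause of the other differences was not tested. No gene of the family passed in low smoke against air under any of these alternatives. The small nucleolar RNAs that rose became 5 of those tested at a mean of at least 50 (fewer are tested there) and 4 without high smoke replicates 1, 3 and 7. The share of counts in low smoke was 0.330% without paralogs, and the start motif was in 76.4% of windows when it could lie within 10 bases. The median changes moved by less than 0.124, the SD between single libraries of the family's median deviation from its group. That limit is wide, so a change of sign can lie within it. In high smoke against air the median ran from -0.05 to 0.03 when 1 library was left out.

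Among the genes named by the rule, only changes that had not passed turned their sign, all in high smoke against air. Without high smoke replicates 1, 3 and 7, Rpl35a was at 0.0813, Rpl36a at 0.0897, Rpl6 at 0.602, Rpl7 at 0.11 and Rps18 at -0.00174. Of other genes given by value, Rpl10a was then at -0.12, Rpl19 at -0.0018, Rps27a at -0.069 and Rpl13a at 0.00062. Rpl7 was at 0.048 with array weights, and Rps18 at -0.0665 with equal totals and -0.0129 with upper quartile scaling. Leaving out 1 library gave -0.18 to 0.0052 for Rpl39, -0.934 to 0.0455 for Rpl6, -0.0846 to 0.0356 for Rpl7 and -0.0534 to 0.0549 for Rps18.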
